A study of Sus scrofa with 36 samples.

Results

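The heat response of the thyroid gland was examined within Large White (LW) pigs, a white commercial breed selected for lean growth. The comparison set 6 LW pigs labelled 30 °C against 6 LW pigs labelled 24 °C, which were all the LW pigs, 12 of the 36 pigs of the series, and it covered all 46097 probes of the deposited value table. All were castrated male growing pigs of the species Sus scrofa, kept indoors first at 24 °C and, for the hot group, then under constant heat. The protocol text gives that heat as 32 °C for 5 days where the labels give 30 °C, and the groups are named here by their labels. Pigs of the 24 °C group were slaughtered before the heat began, so heat cannot be told apart from the later day and the slightly greater age at slaughter. Per the study's methods, the 12 LW pigs came from 3 litters of 4, stood in pens of 3, and were slaughtered on 2 days at each temperature. By those methods the hot pigs were slaughtered after 4 or 5 days of heat, and the labels do not tell these apart. Whole pens were slaughtered at one temperature, 2 pens at each, so heat cannot be told apart from pen either. The labels give no litter, pen or day for a pig, so littermates and penmates were treated as independent. The 24 pigs of the series that were not LW were Creole (CR) and the cross of both breeds (F1), with 6 pigs in each group of breed and temperature. The p-values rest on the spread between pigs within a group, pooled over all 36 pigs. They measure the spread between these pigs only.

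The thyroid makes its hormones in follicles, where thyroglobulin (TG) is iodinated by cells under the control of thyroid-stimulating hormone. Thyroid hormones raise metabolic heat production, and pigs, which sweat little, are known to lower their heat production when they are kept warm. Immediate early genes are switched on within minutes by growth factors, injury or stress and need no new protein synthesis, whereas heat shock chaperones refold proteins damaged by heat.

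Each value is a log2 intensity from 1 array per pig, and a change is the mean of the 30 °C group minus that of the 24 °C group on the log2 scale. The 12 LW arrays correlated at 0.988 to 0.995 over 66 pairs. Probe by probe, arrays of one group differed with a median SD of 0.35, and arrays of different groups with one of 0.36. The share of probes well above background was 74.7% to 78.9%. Both groups had pigs on slides 1 to 4, and slide 5 held 24 °C pigs. Thyroid follicular markers were present in every pig, with 7 of the 10 listed markers measured and TG, NKX2-1, FOXE1, TSHR, SLC5A5, IYD and DUOX2 well above background on all 12 arrays. PTH, the parathyroid hormone, read 8.41 and 7.11 in pigs 1 and 2 of the 30 °C group and between 5.17 and 5.79 in the other 10 LW pigs. Its part in other results was not tested.

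No probe passed the test at an adjusted p under 0.05 in LW pigs. The smallest adjusted p was 0.116 (limma, Benjamini-Hochberg adjustment over 46097 probes), and 49 probes had an adjusted p under 0.2. At an unadjusted p under 0.05 912 probes were higher (1.98% of those tested) and 932 lower (2.02%) at 30 °C, and at any p 46.3% of all probes were lower. The values of the groups did not overlap for 89 probes (0.193%), 47 higher (0.102%) and 42 lower (0.0911%). Larger changes lay mostly on the lower side. A change of at least 1 on the log2 scale was seen for 69 probes, 58 lower and 11 higher. The same fit called 173 probes (0.375%) in CR and 174 (0.377%) in F1. The count in LW rested on single pigs. Without pig 1 of the 24 °C group 16 probes were called (3 higher, 13 lower), and without pig 3 of the 30 °C group 15 were called (3 higher, 12 lower), with 6 probes shared between these 2 sets. The first set held probes of CYR61, SLC16A11, ACAD8, JUN, CCL2 and SDS, and the second held probes of CCL2, CYR61, RGS1 and DUSP1. Leaving out any other LW pig gave 0 calls.

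Several of the probes with the smallest p carry no gene name. The one with the smallest p of all is listed by a database accession, which was not matched to a gene here. It lay between 9.58 and 10.23 at 24 °C and between 8.71 and 9.70 at 30 °C (change -0.92, SE 0.17, adjusted p 0.116), and without pig 3 of the 30 °C group the change was -1.05 (adjusted p 0.0125). For those listed by a plain array number, the sequence is the only identity that can be given. The sequences given here are those of the 4 such probes with the smallest p. Each is 60 bases long and is written 5′ to 3′ as printed on the array. The files give no genome position for them.
A_72_P114516: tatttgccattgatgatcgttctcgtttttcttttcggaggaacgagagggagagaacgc
A_72_P014106: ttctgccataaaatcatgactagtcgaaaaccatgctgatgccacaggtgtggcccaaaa
A_72_P412953: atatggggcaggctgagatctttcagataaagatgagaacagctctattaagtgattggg
A_72_P420944: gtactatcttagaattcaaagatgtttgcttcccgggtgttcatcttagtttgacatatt

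The probe A_72_P114516 lay between 11.17 and 11.82 at 24 °C and between 8.75 and 10.59 at 30 °C, where pig 3 was the lowest. The groups did not overlap, the change was -1.68 (SE 0.31, adjusted p 0.116), and it was -1.23 in CR and -1.23 in F1. The probe A_72_P014106 went the other way, from 8.86 to 9.12 at 24 °C against 9.31 to 9.57 at 30 °C, a change of 0.44 (SE 0.09, adjusted p 0.122) without overlap. In F1 this probe rose by 0.40 (adjusted p 0.0209). The probe A_72_P412953 differed by -0.86 (SE 0.17, adjusted p 0.122), and pig 3 of the 30 °C group, at 8.72, lay above the lowest 24 °C pig, at 8.67. The probe A_72_P420944 differed by -0.51 (SE 0.10, adjusted p 0.122) without overlap, and it fell in both other groups of pigs, by 0.59 in CR (adjusted p 0.00223) and by 0.58 in F1 (adjusted p 0.00506).

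The immediate early genes held the largest LW changes. This list has 30 genes, of which 26 were measured, and none was called. Of the 26, 21 were lower at 30 °C (47.5% of all named genes were), 8 of them at an unadjusted p under 0.05 and 1 higher at that level, where 2.39% of all 10688 named genes were lower and 1.67% higher at that p. The median change of the list was -0.19, against 0.01 over all named genes. FOS, which forms the transcription factor AP-1 with JUN, had the largest change of any named gene. It lay between 12.47 and 13.81 in the 24 °C pigs, with a median of 13.09. At 30 °C it read 9.75 in pig 1, 9.26 in pig 2, 13.33 in pig 3, 9.98 in pig 4, 12.72 in pig 5 and 12.04 in pig 6. The 30 °C pigs thus stood in 2 sets of 3, with pigs 1, 2 and 4 far below every 24 °C pig, pigs 3 and 5 within the 24 °C range and pig 6 just under it. The change in FOS was -1.93 (SE 0.54, 95% interval -3.03 to -0.82, adjusted p 0.501), and all 5 of its probes had an unadjusted p under 0.05.

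Pigs 1, 2 and 4 of the 30 °C group were also the lowest of that group for EGR1, JUN and CYR61. EGR1, a zinc finger transcription factor, read 7.50, 7.68 and 7.56 in these pigs and 9.26, 9.30 and 8.40 in pigs 3, 5 and 6, against 8.90 to 9.40 at 24 °C (change -0.85, SE 0.27, adjusted p 0.788). JUN read 13.22, 12.95 and 13.06 in the same 3 pigs and 14.17, 14.31 and 14.04 in the other 3, against 13.94 to 15.68 at 24 °C (change -1.17, SE 0.28, adjusted p 0.184). Its highest 24 °C values were in pigs 2, 6 and 3. CYR61, a secreted matrix protein induced by serum and stretch, read 10.36, 10.15 and 9.80 against 11.84, 11.52 and 11.74. At 24 °C it lay between 11.57 and 13.24, with the lowest value in pig 1 and all other pigs at 12.50 or more. The change in CYR61 of -1.73 (SE 0.33, adjusted p 0.122) was the one with the smallest p of any named gene, 0.301 times the 24 °C level. With pig 1 of the 24 °C group left out it was -1.94 (adjusted p 0.0276), and with pig 3 of the 30 °C group left out it was -1.92 (adjusted p 0.0330). The labels do not give the pen or the day of slaughter of these pigs, and the 3 low arrays lay on slides 1, 2 and 3, with pigs 3 and 5 on slides 2 and 3.

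**Figure D1:**
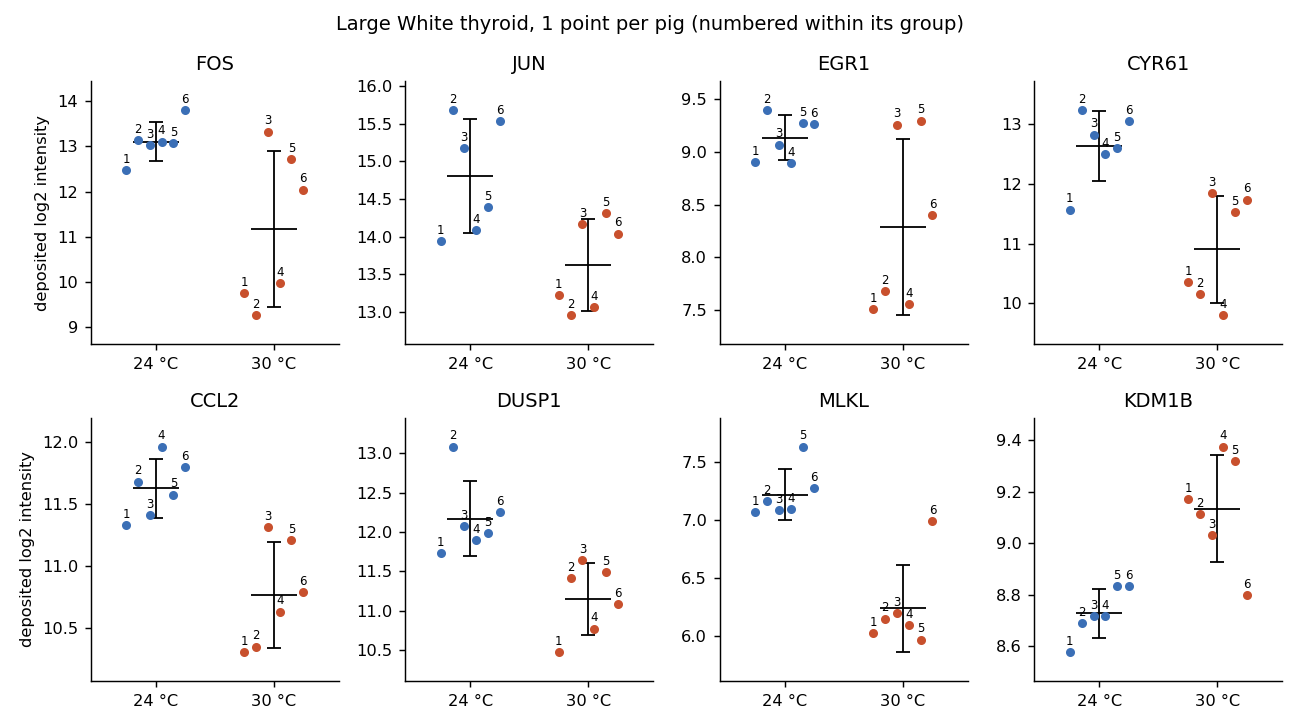
Log2 intensity (y axis) of 8 genes in the 6 LW pigs of the 24 °C group (blue) and the 6 of the 30 °C group (red), with 1 point per pig numbered within its group and a black bar for mean ± SD. For FOS, EGR1 and CYR61, pigs 1, 2 and 4 of the 30 °C group lie far below the rest, DUSP1, CCL2 and MLKL do not overlap between groups, and KDM1B overlaps by pig 6 alone.

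DUSP1, a phosphatase that switches off mitogen-activated kinases, did not overlap between the groups, which held for 10 of the 10688 named genes (0.0936%). It lay between 11.74 and 13.09 at 24 °C and between 10.47 and 11.64 at 30 °C, a change of -1.03 (SE 0.22, adjusted p 0.156). ATF3, a stress-induced repressor, was lower by 0.43 (SE 0.13, adjusted p 0.618), but it was well above background on 4 arrays at 24 °C and 1 at 30 °C. MYC was lower by 0.34 (SE 0.14) and BTG2 by 0.36 (SE 0.17). IER3 was the one member higher at an unadjusted p under 0.05, with 6.55 to 7.04 at 24 °C and 6.90 to 7.54 at 30 °C, a difference of 0.45 (SE 0.14, adjusted p 0.708). The remaining members showed small differences, such as 0.07 for NR4A1, -0.06 for EGR2 and -0.10 for IER2. The leading early genes had the same sign in the other pigs. FOS differed by -1.31 in CR and -1.49 in F1, JUN by -0.76 and -0.68, and CYR61 by -1.13 and -0.96, and the test of the LW change against the mean of both gave unadjusted p of 0.434, 0.189 and 0.103. The list mean was 9.82 ± 0.16 (SD, n = 6) in LW pigs at 24 °C, against 9.58 ± 0.17 in CR and 9.62 ± 0.13 in F1, and at 30 °C it was 9.45 ± 0.24, 9.38 ± 0.14 and 9.35 ± 0.09. The breeds were not tested against each other at one temperature.

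No other gene with a small p in the lower direction was called either. CCL2, the chemokine that draws monocytes into tissue, lay between 11.33 and 11.96 at 24 °C and between 10.30 and 11.31 at 30 °C, with no overlap and a change of -0.86 (SE 0.18, adjusted p 0.135). All 4 of its probes had this sign with an unadjusted p under 0.05. Without pig 3 of the 30 °C group the change was -0.97 (adjusted p 0.0330). RGS1, a brake on chemokine receptor signalling in leukocytes, differed by -1.32 (SE 0.31, adjusted p 0.184), and without pig 3 of the 30 °C group by -1.57 (adjusted p 0.0404). SDS, which breaks down serine in the liver, was at 9.61 to 10.98 at 24 °C and 8.43 to 9.44 at 30 °C, again with no overlap (change -1.22, SE 0.27, adjusted p 0.156). SLC2A3, a glucose transporter, was lower by 0.45 (SE 0.12), MTBP by 0.39 (SE 0.09) where F1 fell by 0.45 (adjusted p 0.0152), and MASP1, a protease of the lectin complement pathway, by 0.36 (SE 0.10). SCD, the desaturase that makes monounsaturated fatty acids, was lower by 1.05 (SE 0.37), with 10 of its 11 probes at an unadjusted p under 0.05.

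Among the genes higher at 30 °C, KDM1B, a histone demethylase, had the smallest p. It lay between 8.58 and 8.83 in the 24 °C pigs and between 9.03 and 9.37 in 5 of the 30 °C pigs, with pig 6 at 8.80. The difference of 0.41 (SE 0.09, adjusted p 0.169) stood beside 0.35 in CR and 0.44 in F1, where it passed the test (adjusted p 0.0221). Of its 3 probes, 2 had that sign and the remaining one read -0.02. AKAP13, an anchor for protein kinase A, was tightly grouped at 30 °C, between 12.83 and 13.02. At 24 °C 5 pigs lay between 11.69 and 12.18 and pig 5 at 12.86 (difference 0.78, SE 0.21, adjusted p 0.375). Of its 6 probes this was the one with an unadjusted p under 0.05, and 2 had the opposite sign, with -0.10 and -0.04. FIBIN, a secreted protein named for fin bud initiation, was higher by 0.90 (SE 0.27, adjusted p 0.602), SLC16A11, a monocarboxylate transporter, by 0.64 (SE 0.18, adjusted p 0.457), and CTSC, a lysosomal protease, by 0.32 (SE 0.10, adjusted p 0.708). Without pig 1 of the 24 °C group the difference in SLC16A11 was 0.83 (adjusted p 0.0319). PPP2R3A, LOC100514323 and EPN1 differed by 0.22, 0.39 and 0.29. DDA1, a subunit of a ubiquitin ligase, was not well above background on any 24 °C array and was on all 6 at 30 °C, with means of 5.34 and 5.59. With 5.36 taken as the limit of its 24 °C mean, its level was at least 1.17-fold higher at 30 °C, or 0.23 on the log2 scale (adjusted p 0.337). This bound leaves out the spread between pigs, and without 1 pig the difference in DDA1 ran from 0.20 to 0.27.

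Most of the measured genes of cell division had lower means in LW pigs at 30 °C, and none was called. Of 43 measured genes of the mitosis list, which holds kinases, cyclins, kinesins and centromere proteins, 37 were lower at 30 °C, 20 at an unadjusted p under 0.05 and none higher at that p, with 0 called. The median change was -0.29. CDK1, the kinase that starts mitosis, lay between 7.59 and 9.60 at 24 °C with a median of 8.71, and between 7.46 and 8.18 at 30 °C with a median of 7.87. The change was -0.87 (SE 0.28, adjusted p 0.808), and all 6 of the 30 °C pigs lay below the 24 °C mean. TOP2A, which untangles DNA before chromosomes separate, differed by -0.86 (SE 0.32), CCNB1, the cyclin partner of CDK1, by -0.70 (SE 0.25), and CDC20, which triggers chromosome separation, by -0.42 (SE 0.20). CENPA, the centromere histone, was not well above background on any 30 °C array and was on 3 at 24 °C. With 5.28 taken as the limit of its 30 °C mean, it was at least 1.18-fold higher at 24 °C, or 0.23 on the log2 scale (limma, unadjusted p 0.0456). This bound leaves out the spread between pigs, and without 1 pig the change in CENPA ran from -0.36 to -0.20. The 24 °C pigs varied more than the 30 °C pigs. The mean of the list read 8.32, 8.29, 7.93, 8.49, 8.71 and 8.21 in pigs 1 to 6 at 24 °C and lay between 7.87 and 8.09 at 30 °C. Pig 3 of the 24 °C group, at 7.93, was thus inside the range of the heated pigs. Without pig 5 of that group, the highest, 14 genes had an unadjusted p under 0.05 and the median was -0.20, and without pig 3 there were 23 genes and a median of -0.36.

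The genes that supply DNA synthesis showed the same direction with smaller sizes. Of 27 measured, 21 were lower and 4 of these had an unadjusted p under 0.05, with a median of -0.08. PCLAF, a partner of the replication clamp, lay between 8.03 and 9.92 at 24 °C and 7.48 and 8.67 at 30 °C (change -0.94, SE 0.29, adjusted p 0.708). RRM2, which makes deoxynucleotides, differed by -0.81 (SE 0.27), UHRF1 by -0.40 (SE 0.15) and PCNA, the clamp itself, by -0.29 (SE 0.11). Targets of p53 showed no common direction, with 8 of 19 lower and a median of 0.05. BAX, which promotes cell death, was higher by 0.36 (SE 0.15), with values of 9.91 to 11.27 at 30 °C around the 10.22 to 10.65 of the 24 °C pigs.

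In the other pigs the mitosis median was -0.54 in CR and -0.53 in F1, where 23 and 19 of the 43 genes were called against 0.505% and 0.412% of all named genes. The LW change was smaller in size than both in 38 of 43 genes, against 4121 of all 10688 named genes. Tested gene by gene against the mean of the other changes, 19 of 43 had an unadjusted p under 0.05 with the LW change above, and none below, where 1.87% of named genes were above and 1.73% below at that p (3.60% in either direction). None of these differences passed adjustment over all probes, and the count was 10 without pig 3 of the 24 °C group and 12 without pig 3 of the 30 °C group. The list was written with earlier results of these data known, so these counts describe it and do not test it. CDK1 fell by 1.80 in CR and fell by 1.66 in F1 (difference 0.85, SE 0.35, unadjusted p 0.0192), and CDC20 fell by 1.19 and fell by 1.09 (difference 0.72, SE 0.25, unadjusted p 0.00654). The mean of the mitosis list at 24 °C was 8.32 ± 0.26 in LW, 8.68 ± 0.17 in CR and 8.57 ± 0.36 in F1 (SD, n = 6 each), and at 30 °C it was 8.01 ± 0.07, 7.97 ± 0.24 and 7.90 ± 0.08. These levels were not tested between breeds. In such bulk tissue, fewer cells of a type and less RNA per cell cannot be told apart.

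**Figure D2:**
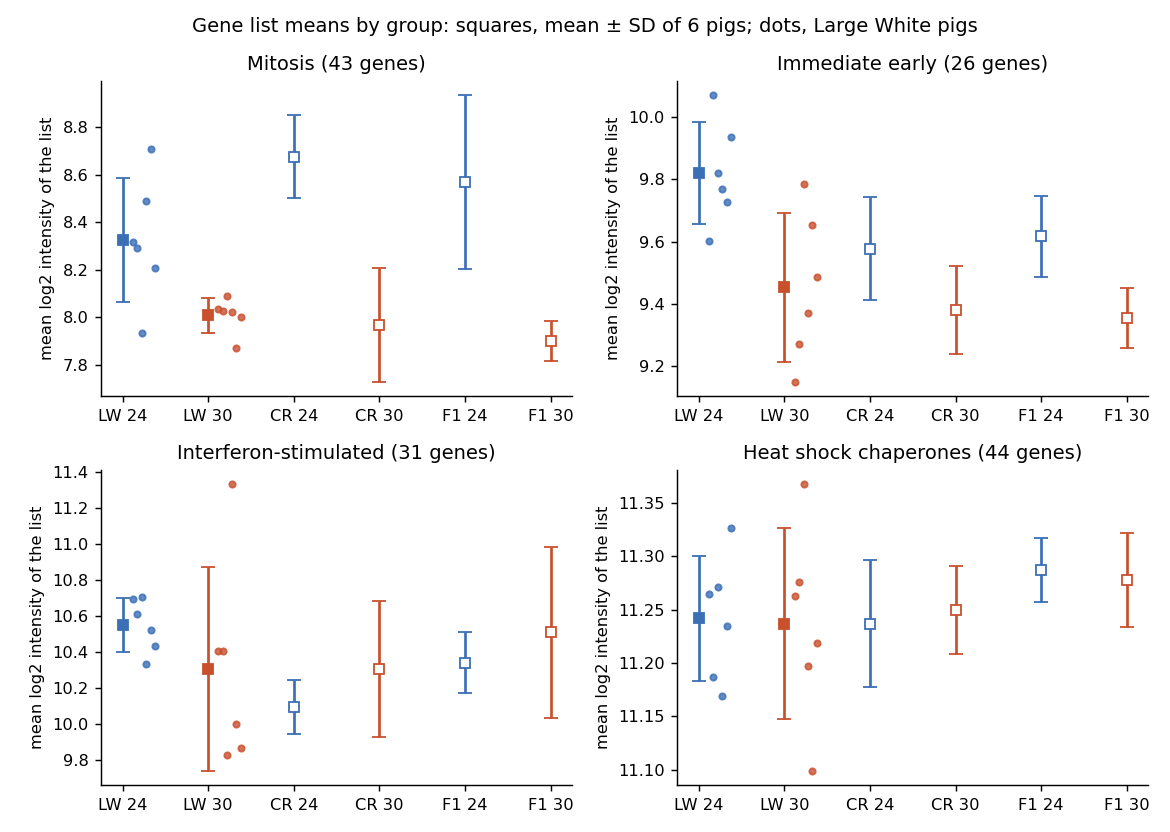
Mean log2 intensity (y axis) of the measured genes of 4 lists in the 6 groups, with squares and bars for mean ± SD of 6 pigs (filled for LW), blue for 24 °C and red for 30 °C, and dots for single LW pigs. The mitosis mean at 24 °C is 8.32 in LW, below CR and F1, and at 30 °C it is about 8 in all 3, the immediate early mean at 24 °C is highest in LW, 1 LW pig at 30 °C stands at 11.34 for the interferon list, and the heat shock means differ by little.

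The probes that responded in the other pigs were followed in LW, where they had not been chosen. These comparisons share no pigs, but they share slides and the fit's estimate of the spread. Of the 173 probes called in CR, 172 had the same sign in LW, against 57.0% of all probes, and 108 (62.4%) had that sign with an unadjusted p under 0.05. That number was 63 with slide as a fixed block and 70 with position on the slide as a block. Of the 174 called in F1, 158 had the same sign in LW, against 51.4% of all probes, and 83 (47.7%) did so with an unadjusted p under 0.05. The 164 probes that fell in CR had a median change of -0.35 in LW and -0.70 in F1, and the LW change was the smaller in 153. The 127 that fell in F1 had medians of -0.32 in LW and -0.72 in CR, and the LW change was the smaller in 120. The 47 that rose in F1 had medians of 0.17 in LW and 0.16 in CR, and the LW change was the smaller in 21. Many of these probes belong to the genes of cell division above and do not count as separate responses. Without pig 5 of the 24 °C group, the numbers at an unadjusted p under 0.05 were 59 of 173 and 52 of 174, and 168 and 162 had the same sign.

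**Figure D3:**
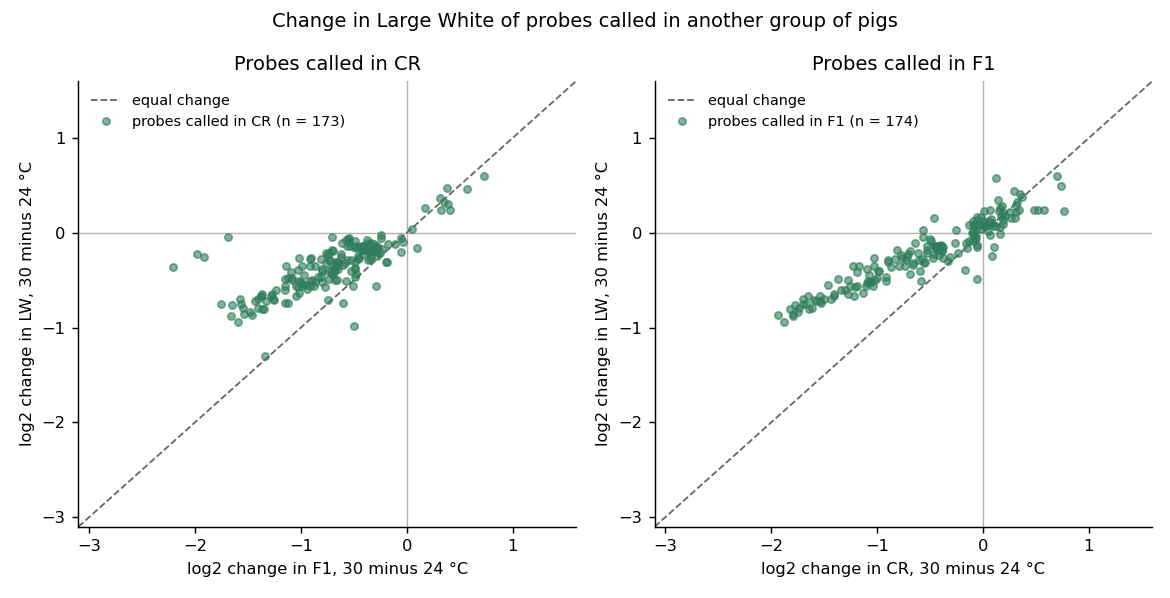
Change in LW (y axis, log2, 30 minus 24 °C) of the 173 probes called in CR, against their change in F1 (left), and of the 174 probes called in F1, against their change in CR (right), so that neither axis was used to choose the points, with equal change on the dashed line. Among the probes lower in CR, 163 of 164 are below 0 in LW and 153 lie on the side of the line where the LW change is smaller.

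Heat shock chaperones showed no common direction in LW pigs. Of 44 measured genes of this list, 20 were lower and 24 higher at 30 °C, with none called, none at an unadjusted p under 0.05 and a median of 0.01. HSP90AA1, the inducible form of a major cytosolic chaperone, differed by -0.01 (SE 0.13, 95% interval -0.27 to 0.24), HSPH1 by -0.08 (SE 0.12, -0.32 to 0.15) and HSPA8, the constitutive HSP70, by -0.17 (SE 0.12, -0.40 to 0.07). These intervals leave out a doubling or a halving. The sign for HSP90AA1 turned when any of 4 pigs was left out. The largest differences were 0.40 (SE 0.22) for TRAP1 and -0.34 (SE 0.19) for HSPA4. Of 30 chaperones and sensors of the endoplasmic reticulum, 22 were lower and 3 had an unadjusted p under 0.05, all lower, with a median of -0.03. HSPA5, the main chaperone of that compartment, lay between 15.38 and 15.72 at 24 °C and 15.04 and 15.60 at 30 °C (change -0.26, SE 0.13). HYOU1 and MANF, which act beside it, were lower by 0.31 (SE 0.12) and 0.36 (SE 0.16).

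Genes of thyroid hormone synthesis did not differ as a group. Of 14 measured, 7 were lower and 7 higher, and none had an unadjusted p under 0.05. TG lay between 18.32 and 19.02 at 24 °C and 18.56 and 19.07 at 30 °C, a difference of 0.05 (SE 0.15, 95% interval -0.25 to 0.36). SLC5A5, which carries iodide into the cell, ranged from 15.84 to 17.55 at 24 °C and from 15.72 to 17.54 at 30 °C, and its difference of 0.05 had an interval of -0.69 to 0.79. DIO2, which makes the active hormone from its precursor, differed by 0.32 (-0.56 to 1.19), and 1 pig at 30 °C, at 11.91, stood above the rest. DUOX2, which supplies hydrogen peroxide for iodination, differed by -0.12 (-0.37 to 0.14), and its maturation factor DUOXA2 by -0.38 (-0.79 to 0.04). TSHR, the receptor of thyroid-stimulating hormone, differed by 0.18 (-0.10 to 0.47). The wider list of receptor, cAMP signalling and follicular identity genes had 8 of 21 lower and a median of 0.01. Of 12 measured genes that respond to thyroid hormone 5 were lower, with a median of 0.04, and RXRG, a nuclear receptor, was the member with an unadjusted p under 0.05, at -0.18 (SE 0.08). KLF9, of the same list, differed by -0.27 (SE 0.15), all 12 of its probes having that sign and 1 an unadjusted p under 0.05.

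Glucocorticoid responsive genes were mostly lower. Of 15 measured, 13 were lower, 2 of them, DUSP1 and the metal-binding MT1A, at an unadjusted p under 0.05, and the median was -0.27, against -0.03 in CR and -0.34 in F1. The list mean differed by -0.29 in LW, -0.31 in CR and -0.59 in F1, so median and mean set CR differently. Without pig 2 of the 24 °C group the LW median was -0.15, and without pig 3, 5 or 6 of the 30 °C group it was -0.17, -0.16 and -0.17, with 1 to 4 genes at that p over all pigs left out. FKBP5, a co-chaperone of the glucocorticoid receptor, lay between 9.11 and 9.35 at 24 °C and spread from 8.32 to 9.70 at 30 °C (difference -0.28, SE 0.21). PER1, which belongs to this list and to the circadian clock, differed by -0.36 (SE 0.22), with pig 4 of the 30 °C group at 14.30 and the other 5 between 12.89 and 13.34. Clock genes leaned the other way, with 14 of 18 higher and a median of 0.11. TEF and PER3, at 0.24 (SE 0.10) and 0.28 (SE 0.12), were the members with an unadjusted p under 0.05, TEF being well above background on 1 array at 24 °C and 4 at 30 °C, and all 6 of the 30 °C pigs were above the 24 °C mean for both. Of 54 ribosomal protein genes 47 were higher, by a median of 0.06, and of 13 mitochondrially encoded genes 12 were lower, by a median of -0.09. The pigs overlapped for both lists. The ribosomal mean ranged from 15.775 to 15.967 at 24 °C and from 15.83 to 16.009 at 30 °C, where 3 of 6 pigs lay below the 24 °C mean. The mitochondrial mean ranged from 16.764 to 17.199 and from 16.692 to 17.064, and without 1 pig its median ran from -0.14 to -0.047. The nuclear genes of oxidative phosphorylation and the antioxidant enzymes had medians of -0.03 and -0.01. Cold-inducible RNA-binding genes, with CIRBP at -0.07 and SRSF5 at 0.05, showed no difference in either direction at an unadjusted p under 0.05.

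Interferon-stimulated genes were mostly lower in LW and mostly higher in the other pigs. In LW 29 of 31 were lower, with a median of -0.21, where 1 of 31 was lower in CR and 6 in F1, with medians of 0.26 and 0.20. None was called, and CXCL10, IFIT2 and STAT2, at -0.65 (SE 0.27), -0.40 (SE 0.19) and -0.22 (SE 0.09), had an unadjusted p under 0.05 in LW. The LW change was below both others in 28 of 31 genes, against 3446 of all 10688 named genes. In the test of the difference 6 of the 31 had an unadjusted p under 0.05 with the LW change below, where 1.73% of named genes did. None was above at that p and none passed adjustment. This list too was written with earlier results known, so its counts are descriptive. The mean of the list lay between 10.33 and 10.71 in the 24 °C pigs. At 30 °C it read 11.34 in pig 4 and between 9.83 and 10.41 in the other 5 pigs. Pig 4 stood above every 24 °C pig, and pigs 3, 5 and 6 stood below them all. Without pig 4 the median was -0.40, 11 genes were lower at an unadjusted p under 0.05, and 23 of 31 differed from the other breeds at that p. Without pig 3, 5 or 6 the median was -0.12, -0.11 and -0.14, and leaving out 1 LW pig gave 3 to 23 genes that differed from the other breeds at that p. With position on the slide as a block the median was also -0.11. The mean of the list at 24 °C was 10.552 ± 0.15 in LW, 10.095 ± 0.15 in CR and 10.342 ± 0.17 in F1 (SD, n = 6 each). At 30 °C it was 10.307 ± 0.56, 10.307 ± 0.38 and 10.51 ± 0.47, with single pigs up to 10.72 in CR and 11.2 in F1. These levels were not tested between breeds, and CR and F1 pigs were not left out in turn.

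Markers of immune cells were also mostly lower. All 6 myeloid markers measured were lower in LW, by a median of -0.27, with CD163, a macrophage scavenger receptor, at -0.57 (SE 0.27). The mean of the myeloid markers ranged from 8.73 to 9.13 at 24 °C and from 8.26 to 8.92 at 30 °C. The T cell receptor genes CD3D and CD3E, part of the thymocyte list, were lower by 0.48 (SE 0.19) and 0.57 (SE 0.23). The test of their difference from the other breeds gave unadjusted p of 0.00391 and 0.00794, and neither passed adjustment. The CD3D change was 0.50 in CR and -0.05 in F1. RAG1, which marks developing T cells, differed by 0.04. Neutrophil markers were lower in 4 of 4, by a median of -0.71, with S100A8, S100A9 and S100A12 at -0.89, -0.59 and -0.83, and their mean ranged from 6.18 to 8.66 at 24 °C and from 5.95 to 7.10 at 30 °C. Pig 5 of the 24 °C group held the highest value, and without it the median was -0.38 and no neutrophil marker had an unadjusted p under 0.05. Without pig 1 of the 30 °C group 1 marker did. BPI, a bactericidal protein of neutrophils, lay between 5.70 and 8.36 at 24 °C and between 5.65 and 8.01 at 30 °C in LW, a difference of -0.22 (SE 0.54), where CR fell by 2.82 (adjusted p 0.00499) and F1 differed by -1.98 (difference 2.18, SE 0.66, unadjusted p 0.00236).

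Erythroid markers were lower in 4 of 4, by a median of -0.43, with HBB and AHSP at an unadjusted p under 0.05. HBB, the beta chain of haemoglobin, lay between 9.81 and 11.40 at 24 °C and 8.97 and 10.66 at 30 °C (change -1.01, SE 0.34, adjusted p 0.875), beside -1.07 in CR and -0.94 in F1. The erythroid mean ranged from 7.55 to 8.38 at 24 °C and from 7.07 to 7.76 at 30 °C. Fibroblast markers were lower in 6 of 6, by a median of -0.31, which was -0.16 without pig 2 of the 24 °C group and -0.18 and -0.21 without pig 1 or 2 of the 30 °C group. Their mean at 30 °C read 11.52, 11.70 and 11.78 in pigs 1, 2 and 4 and 12.78, 12.53 and 12.57 in pigs 3, 5 and 6, the same division as for FOS, EGR1 and CYR61. At 24 °C that mean ranged from 12.06 to 13.16. Adipocyte markers were lower in 5 of 6, by a median of -0.43, with LIPE, the hormone-sensitive lipase, at -0.36 (SE 0.17), and their mean ranged from 10.12 to 10.88 and from 9.88 to 10.68. Endothelial markers were lower in 2 of 6 and follicular markers in 3 of 7, with medians of 0.05 each. The part of these markers in the changes of CCL2, RGS1 and the early, mitosis and interferon genes was not tested.

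**Figure D4:**
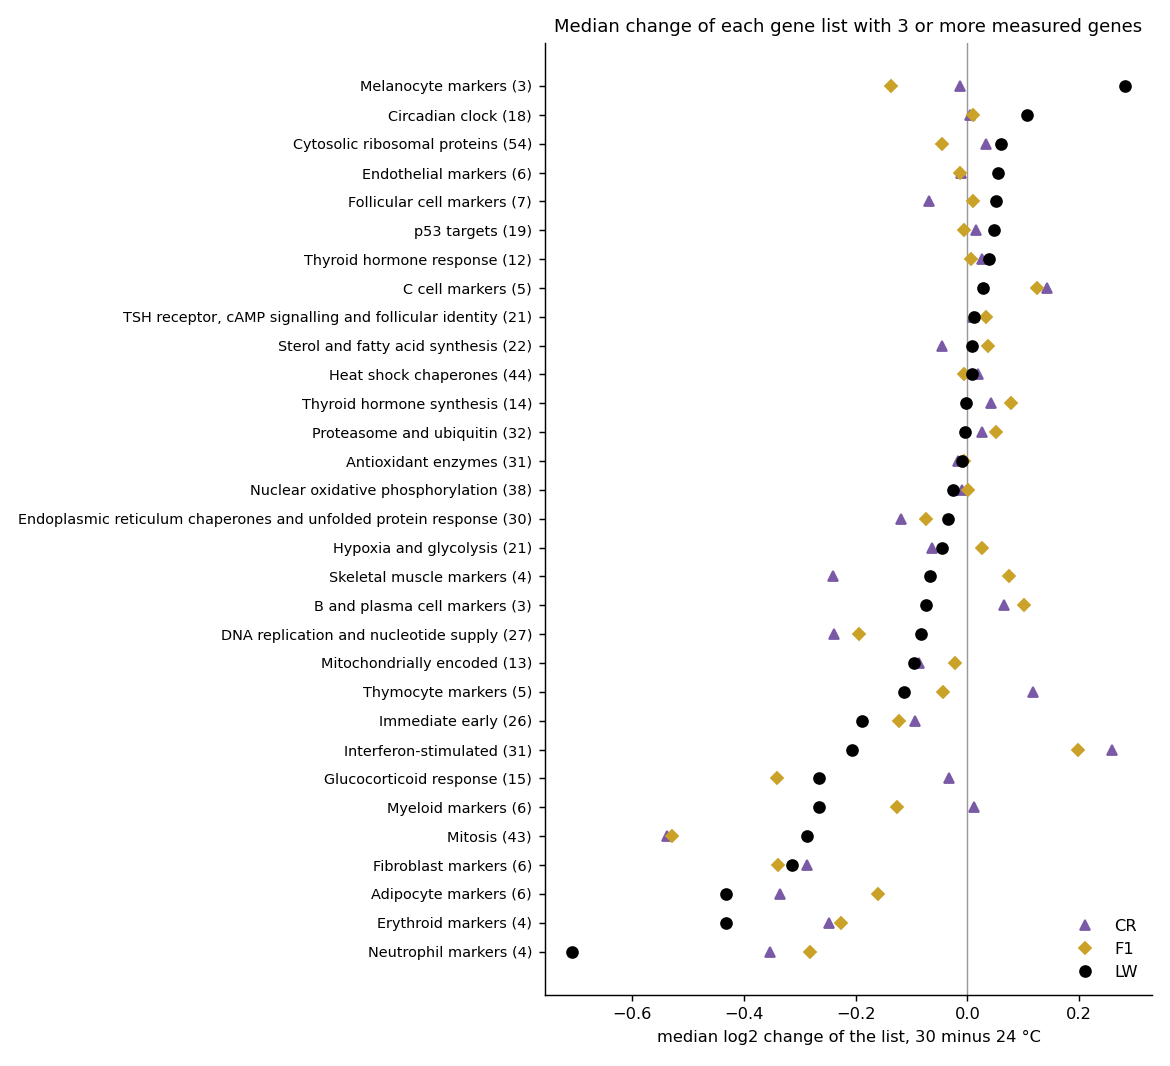
Median log2 change (x axis, 30 minus 24 °C) of each of 31 gene lists with at least 3 measured genes (number in brackets), in LW (black circles), CR (purple triangles) and F1 (yellow diamonds), sorted by LW. The mitosis median is smaller in LW than in CR and F1, the interferon median is -0.21 in LW and positive in CR and F1, and heat shock, thyroid hormone synthesis and antioxidant lists lie near 0 in all 3.

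Across all probes, no LW change differed from the mean of the CR and F1 changes after adjustment. The smallest adjusted p was 0.639, and 1692 probes (3.67%) had an unadjusted p under 0.05, 859 with the LW change above (1.86%) and 833 below (1.81%). Without pig 4 or pig 5 of the 30 °C group 1 and 2 probes were called. The named genes with the smallest p for this difference were TUBA4A, EFHB, DDA1, MLKL and EPN1. MLKL, which ruptures the membrane in necroptosis, lay between 7.06 and 7.63 in LW pigs at 24 °C. At 30 °C it lay between 5.97 and 6.19 in 5 pigs and at 6.98 in pig 6, so the groups did not overlap (change -0.98, SE 0.22, adjusted p 0.156). The other pigs gave 0.02 in CR and -0.01 in F1, a difference of -0.99 (SE 0.27, unadjusted p 0.000871). In CR, MLKL was at 7.26 ± 0.08 and 7.28 ± 0.22, whereas F1 was at 6.46 ± 0.62 and 6.45 ± 0.57 (SD, n = 6 each). F1 pigs thus spread more widely than CR pigs within a temperature. TUBA4A, an alpha tubulin, differed by -0.16 in LW, 0.34 in CR and 0.28 in F1 (unadjusted p 0.000739), EFHB by -0.33, 0.20 and 0.15 (p 0.000799) and EPN1, an endocytic adaptor, by 0.29, -0.14 and -0.09 (p 0.000965). AKAP13 and FIBIN, at -0.16 and -0.28 in CR and 0.05 and 0.13 in F1, had an unadjusted p of 0.00236 and 0.00504 for the difference.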

How the data were processed

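RNA of 1 thyroid per pig was measured on a porcine Agilent array in 1 colour, Cy3. Per the file headers, the scanner files hold mean, median and background pixel intensity, a background-subtracted processed intensity and spot flags. The authors quantile-normalized the median intensity without background subtraction and deposited it as log2 values of 46097 probes, the values used here. The submitters' processing notes name Agilent Feature Extraction 10.10.1.1 and limma. Values remade from the deposited intensity differed from the table by a median absolute 0.0002, after the overall median difference was subtracted. The table lacks 63 values, 22 of them in LW pigs and none in a named gene.

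Limma 3.58.1 in R 4.3.3 was fitted to all 36 arrays with 6 group means (lmFit, contrasts.fit, eBayes; 30 residual degrees of freedom), so the groups share 1 estimate of the spread. The LW change and its difference from the mean of the CR and F1 changes were each adjusted over all probes (Benjamini-Hochberg, called at an adjusted p under 0.05). The fit was tested on simulated data. The study's random terms for pen, slaughter day, sire and dam are not in the labels. Replicates were numbered in accession order. Arrays have no read depth, and their number and signal over background limit precision. Median intensity of LW arrays was 132.5 to 172, that of negative controls 26 to 27, and 0 spots were saturated.

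Names came from the files and the current pig gene list (Sscrofa11.1). Of the probes, 23139 had 1 gene name, 3 several and 22955 none. The probe with the highest LW mean stood for each of 10688 genes. PAX8 and DIO1 were not analysed here. Named are the 10 genes with the smallest p in each direction, a fixed set, each list's members at an unadjusted p under 0.05 (otherwise its extremes), and the 5 genes with the smallest p for the difference. Other genes and probes named were chosen after their values were seen. The pigs, 33 gene lists and tests were chosen with earlier results of these data known. A list was described by counts and its median, and its level is the mean log2 value of its measured genes in a pig. The alternatives concerned background, scaling, dim probes, arrays in the fit, slide, position, spread model and single pigs.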

Additional observations from a re-analysis of the deposited data

Results flagged for a closer look

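In groups of 6 pigs, the highest or lowest pig was set against the others (Dixon's test at the 95% level, ratio of gap to range) for the fixed and leading genes and the means of the gene lists. Of 154 groups tested, 10 had a pig apart, where chance gives about 7.7. MLKL had pig 5 of the 24 °C group high, at 7.63 against a mean of 7.13 in the others (ratio 0.627), and pig 6 of the 30 °C group high, at 6.98 against 6.08 (ratio 0.775). PER1 was high in pig 4 of the 30 °C group, at 14.30 against 13.07 (ratio 0.683). HBB was low in pig 1 of the 24 °C group, at 9.81 against 11.25 (ratio 0.764). In the means of lists, p53 targets were high in pig 2 of the 24 °C group (ratio 0.711) and genes that respond to thyroid hormone were high in pig 5 of the 30 °C group (0.684). The follicular markers were low in pig 5 of the 30 °C group (0.658), the C cell markers in pig 4 (0.692), the erythroid markers in pig 4 (0.708) and the melanocyte markers in pig 1 of that group (0.712).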

How the results depend on the processing

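With remade values, background subtraction with scaling to the 75th percentile, normexp correction, a filter on dim probes, only the 12 LW arrays, slide or position on the slide as a block, or an intensity trend, 0 probes were called in LW and, where run, 0 for the difference from the other breeds. Leaving out 1 LW pig gave 0 to 16 calls in LW and 0 to 2 for the difference. Of the probes called in CR, 63 had the same sign and an unadjusted p under 0.05 in LW with slide as a fixed block and 70 with position as a block, and 59 to 127 without 1 pig. For those called in F1 the range without 1 pig was 52 to 99. The median of the thymocyte markers was -0.11 and moved to -0.53 with scaling to the 75th percentile and -0.28 with the filter on dim probes, and that of the melanocyte markers moved from 0.28 to 0.10 with position as a block. No paired analysis was possible because the labels give no litter, pen or day for a pig.

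Signs turned for genes with small changes. Without 1 pig TG ranged from -0.045 to 0.12, SLC5A5 from -0.14 to 0.28, DIO2 from -0.0098 to 0.49, HSP90AA1 from -0.086 to 0.065 and BPI from -0.48 to 0.050. With position as a block HSP90AA1 read 0.020, and with slide as a fixed block BPI read 0.28. Other probes of a gene gave -0.022 for KDM1B, -0.10 and -0.039 for AKAP13, -0.017 for TG, 0.093 for DUOX2, 4.6e-05 and 0.013 for HSP90AA1 and -0.053 for DCT. Without 1 pig CYR61, CCL2, SLC16A11 and RGS1 passed the threshold. Direction and side of the threshold held for the other 535 values without 1 pig and 412 under the processing alternatives, which cover a part of the named genes. Among the further named genes, signs turned without 1 pig for SCG2 (-0.13 to 0.37), TEK (-0.082 to 0.019), PDGFRA (-0.098 to 0.0036) and TNNT3 (-0.13 to 0.040). The causes were not tested.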
